A study of Mus musculus with 9 samples.

Results

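Glutathione peroxidases reduce hydrogen peroxide and lipid hydroperoxides, and most of them take the electrons from glutathione. Their RNA was examined in corona radiata cells, the granulosa-derived cells closest to the oocyte. The set comprised 7 of the 54838 genes in the deposited matrix, found by their symbols: the peroxidase genes Gpx1, Gpx3, Gpx4, Gpx7 and Gpx8, the glutathione reductase gene Gsr and the glutathione synthetase gene Gss. The set was selected on measured values, since Gpx3 was highest in the transgenic libraries. The Gpx3 levels there are therefore a description and were not tested. The other 6 genes were added for their family or their role in recycling and making glutathione.

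RNA sequencing covered 9 libraries from adult mice, 3 for each of 3 genotypes, after PMSG, which drives follicle growth, and hCG, which triggers ovulation. The genotypes were WT, DKO LXR, in which both liver X receptor genes are knocked out (LXR DKO here), and DKO LXR TG-AMH-LXRb, which is the same double knockout with a transgene (transgenic here). Both knockout groups thus carry the LXR deletion. The labels do not describe the promoter, the coding sequence or the cells that express the transgene, nor which part of each receptor gene was deleted. They add the term "J4" to the hormone treatment without explaining it, and give no animal, litter or pool for any library. Any p-value here thus reflects no more than the spread among 3 libraries per genotype, and that spread may be technical. Values are RPKM, which are reads divided by gene length and library size, and differences are on the log2(RPKM + 1) scale with their standard error (SE), tested in limma, where p was adjusted by Benjamini and Hochberg's method across 16422 genes.

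Glutathione is a tripeptide whose last synthetic step is made by the enzyme of Gss, and whose oxidised form is returned to the reduced form by the enzyme of Gsr with NADPH. Gpx1 is the abundant cytosolic peroxidase, Gpx3 is secreted and found in plasma and other body fluids, and Gpx4 reduces lipid hydroperoxides within membranes and protects against ferroptosis. These enzymes carry selenocysteine in the active site, an amino acid encoded by a UGA codon that would otherwise stop translation. Gpx7 and Gpx8 lie in the endoplasmic reticulum, have cysteine in its place, and pass oxidising power to protein disulfide isomerases. In the ovary the peroxide handled by this family arises during steroid synthesis and ovulation.

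The coding stretch around the catalytic codon shows how the members differ. Each line gives the catalytic codon in capitals with 30 coding bases on either side, 5′ to 3′, as DNA from the GENCODE M21 transcripts of the mm10 build.
Gpx3: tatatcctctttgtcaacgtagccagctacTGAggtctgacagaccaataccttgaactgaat
Gpx1: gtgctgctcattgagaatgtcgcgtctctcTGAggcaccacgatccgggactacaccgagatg
Gpx4: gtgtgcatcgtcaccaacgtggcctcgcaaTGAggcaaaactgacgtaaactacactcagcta
Gpx7: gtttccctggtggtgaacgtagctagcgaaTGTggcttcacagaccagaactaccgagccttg
Gpx8: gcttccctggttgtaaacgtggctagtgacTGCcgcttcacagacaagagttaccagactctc
The TGA of Gpx3 is codon 73 and lies at chr11:54907256-54907258 on the plus strand. That of Gpx1 is codon 47 at chr9:108339451-108339453 and that of Gpx4 codon 73 at chr10:80054737-80054739, both on the plus strand. All 3 are annotated as selenocysteine codons. The TGT of Gpx7, codon 56 at chr4:108403430-108403432, and the TGC of Gpx8, codon 79 at chr13:113045661-113045663, both on the minus strand, are cysteine codons that align with the TGA of Gpx1. Over these 63 bases, Gpx3 had 27 bases in common with Gpx1, 29 with Gpx4, 35 with Gpx7 and 31 with Gpx8.

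All 7 genes passed the filter on low values and were deeply covered. Read numbers worked back from the RPKM values ranged from 983 for Gpx8 in LXR DKO 2 to 24635 for Gpx1 in WT 3. The libraries held 28126957 to 41504671 reads in the genes whose reads could be worked back. The knocked-out gene Nr1h2 measured 39.7 to 45.7 RPKM in WT, 2.85 to 3.57 in LXR DKO and 4.83 to 6.70 in transgenic libraries, and Nr1h3 measured 3.50 to 5.72, 0.713 to 1.08 and 0.395 to 0.819 RPKM, which checks the labels only in part. Of 20 granulosa and cumulus markers 19 reached 1 RPKM in at least 1 library, and the score of that list, a mean log2(RPKM + 1), was 4.42 to 4.72 in WT, 4.17 to 4.39 in LXR DKO and 4.18 to 4.32 in transgenic libraries. Markers of other cells were also present. The oocyte score was 5.23 in WT 1 and 3.47 in LXR DKO 1 against at most 1.67 in the other libraries, and the erythroid score was 7.31 in WT 3 against at most 5.30 elsewhere.

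Gpx3 RNA was most abundant in the transgenic libraries and least abundant in LXR DKO. Gpx3 (ENSMUSG00000018339, mm10 chromosome 11, 54902453 to 54910377, plus strand) measured 227, 217 and 202 RPKM in transgenic 1 to 3. It measured 94.5, 90.8 and 119 RPKM in WT 1 to 3 and 83.0, 63.1 and 61.5 RPKM in LXR DKO 1 to 3. The 3 groups did not overlap, and the lowest transgenic library lay well above the highest WT library, WT 3. The transgenic mean of 215 ± 12.8 RPKM was 3.11 times the LXR DKO mean of 69.2 ± 12 and 2.12 times the WT mean of 101 ± 15.4 (SD, n = 3). On the log2 scale the transgenic libraries differed from LXR DKO by 1.64 ± 0.14 and from WT by 1.09 ± 0.14. Of the 16422 genes tested, 10 had a larger rise than Gpx3 from LXR DKO to transgenic and 447 from WT to transgenic. These differences are those for which the gene was chosen. They lay between 1.56 and 1.77 and between 1.01 and 1.21 under all alternatives run.

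**Figure D1:**
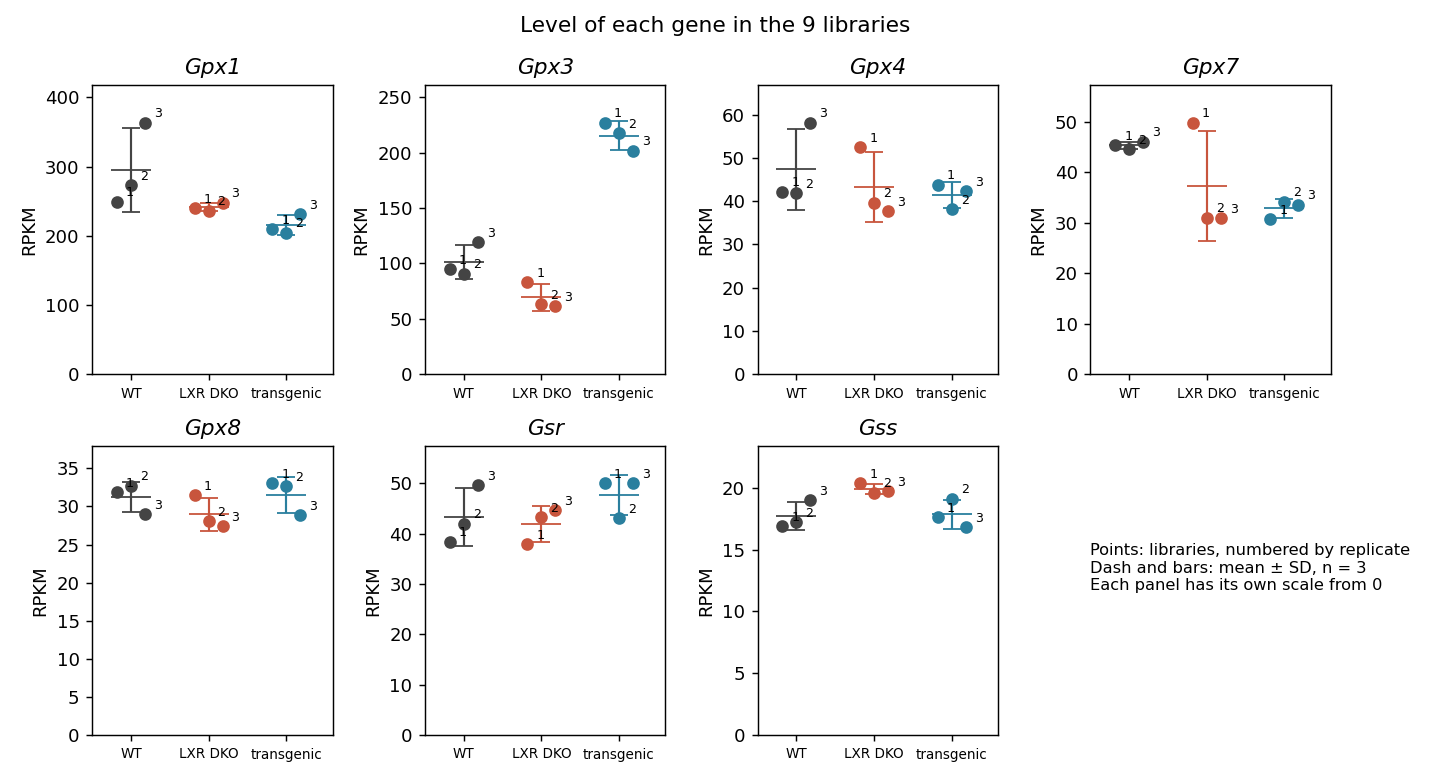
Level of each of the 7 genes in RPKM (vertical axes, each from 0) in the 3 libraries of each genotype, with points numbered by replicate and the mean ± SD. Gpx3 lies between 202 and 227 in transgenic libraries and at most at 119 elsewhere, while LXR DKO 1 stands apart from the other LXR DKO libraries for Gpx7.

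Gpx3 was chosen for its level in transgenic libraries, not for a difference between LXR DKO and WT. That choice still set the transgenic values against those of both groups, so this comparison is not independent of it. Gpx3 was lower in LXR DKO, where it fell by 0.55 ± 0.14 (limma adjusted p = 0.0423), and every LXR DKO library lay below every WT library. It was the 1 of 7 members that passed in this comparison, where 10.6% of all genes passed, 3.47% higher and 7.12% lower. The members' share thus lies close to the background. The call was lost on leaving out any 1 library other than LXR DKO 1, with adjusted p from 0.0583 without WT 2 to 0.15 without LXR DKO 3, and differences of -0.62 to -0.43. Without LXR DKO 1 the difference was -0.68 (adjusted p = 0.0154). It was also lost with no filter on low values (adjusted p = 0.103), with the 2 genotypes alone (0.108), with the replicate number as a block (0.0724) and with no mean-variance trend (0.0501). Without WT 1 and LXR DKO 1, the libraries with the most oocyte RNA, the difference was -0.73 (adjusted p = 0.0333).

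Markers of other cell types differed between the transgenic libraries and the rest. The oviduct markers were highest on average in transgenic libraries, as Gpx3 was. WT 1 and 2 lay below every LXR DKO library in the secretory score and above them all in Gpx3. The macrophage score was lowest in transgenic libraries. All 12 oviduct secretory markers had a higher mean in transgenic than in LXR DKO and in WT libraries, with scores of 4.51 to 4.93 in transgenic, 3.27 to 4.11 across LXR DKO and 2.64 to 4.75 across WT libraries. The oviduct glycoprotein gene Ovgp1 measured 1266, 1857 and 1679 RPKM in transgenic, 226, 655 and 477 in LXR DKO and 52.2, 109 and 1125 in WT libraries. WT 3 was the highest of the WT libraries in both. Its oviduct secretory score of 4.75 was within the transgenic range, and its Gpx3 level of 119 RPKM was below every transgenic library. Among LXR DKO libraries, LXR DKO 1 had the lowest oviduct secretory score, 3.27, and the highest Gpx3 level, 83.0 RPKM. All 13 ciliated cell markers were also higher on average in transgenic libraries than in either other genotype, with scores of 2.47 to 3.40 against 2.01 to 2.65 across LXR DKO and 1.32 to 3.20 across WT. None of 15 macrophage markers had a higher mean in transgenic than in LXR DKO libraries, with scores of 3.33 to 3.70 against 4.16 to 4.63. Against WT, with scores of 3.98 to 4.73, 1 of the 15 had a higher mean in transgenic libraries, Cd14 (45.4 against 41.4 RPKM). The score of 10 theca and stroma markers was 0.76 to 0.90 in transgenic, 0.43 to 0.84 across LXR DKO and 0.44 to 0.78 across WT libraries. No marker of these lists was at 0 in all libraries. The part of these cells in the Gpx3 level was not tested, and in these bulk samples fewer cells of a type and less RNA per cell cannot be told apart.

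**Figure D2:**
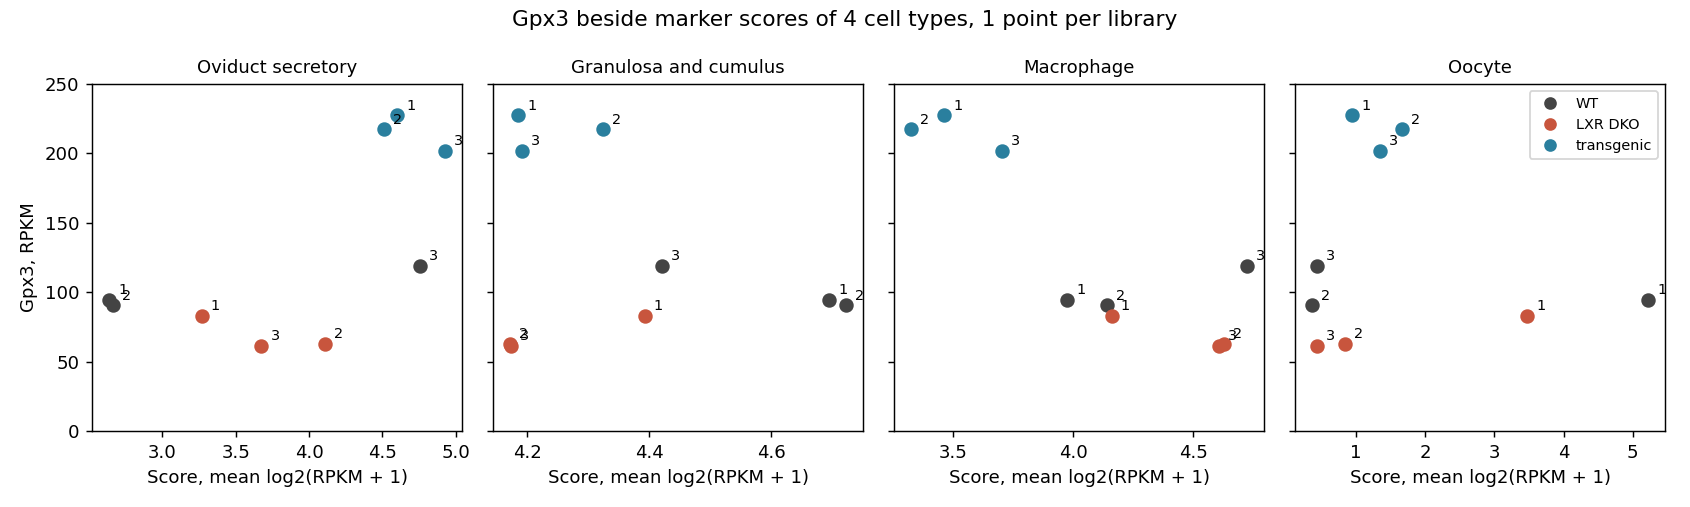
Gpx3 in RPKM (vertical axis) against the score of 4 marker lists (horizontal axes, mean log2(RPKM + 1)), with 1 point per library, numbered by replicate. WT 3, the WT library highest in both, has an oviduct secretory score of 4.75, among the transgenic libraries, with Gpx3 at 119 RPKM.

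Gpx1 RNA, that of the abundant cytosolic enzyme, was lowest in the libraries where Gpx3 was highest. Gpx1 (ENSMUSG00000063856, chromosome 9, 108338903 to 108340343, plus strand) measured 249, 273 and 363 RPKM across WT libraries, 240, 236 and 248 across LXR DKO and 210, 205 and 231 across transgenic ones. The 3 groups did not overlap, although WT 1 and LXR DKO 3 differed by little. No difference passed the threshold: it was -0.27 ± 0.13 for LXR DKO minus WT (limma adjusted p = 0.24), -0.17 ± 0.13 for transgenic minus LXR DKO (0.8) and -0.44 ± 0.13 for transgenic minus WT (0.0679). The last passed only with libraries weighted by their quality (-0.33, adjusted p = 0.0335). WT 3, the library with the highest Gpx1 level, also had the most red cell RNA, with 9881 RPKM summed over 7 erythroid markers against at most 971 in any other library. Without WT 3 the difference between transgenic and WT libraries was -0.28 (adjusted p = 0.0624).

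The balance between the secreted and the cytosolic enzyme's RNA differed in the transgenic libraries, while the WT and LXR DKO ranges of Gpx3 to Gpx1 overlapped. Per length, Gpx3 stood at 0.328 to 0.379 of Gpx1 in WT libraries, at 0.248 to 0.346 in LXR DKO and at 0.872 to 1.08 in transgenic libraries. As counted, Gpx1 was the most abundant of the 7 genes in all WT and LXR DKO libraries and in transgenic 3. Gpx3 was the most abundant in transgenic 1 and 2. Gpx3 made up 18.8 to 20.4% of the summed RPKM of the 5 peroxidase genes in WT, 15.2 to 18.2% in LXR DKO and 37.5 to 41.7% in transgenic libraries. That sum was 521 ± 83.1 RPKM in WT, 420 ± 31.9 in LXR DKO and 536 ± 8.78 in transgenic libraries (SD, n = 3), with WT 3 at 616 as the highest. The transgenic and WT sums thus overlapped while the Gpx3 share in them did not. These shares rest on the Gpx3 values used for the choice and were not tested. The order, sums and shares also take Gpx4 as counted, without its near copy Gpx4-ps2, which measured 140 to 215 RPKM (below). In LXR DKO 1, for example, Gpx4 measured 52.5, the copy 197 and Gpx1 240 RPKM. How many reads of the copy belong to Gpx4 is not known, so the order, sums and shares could differ.

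**Figure D3:**
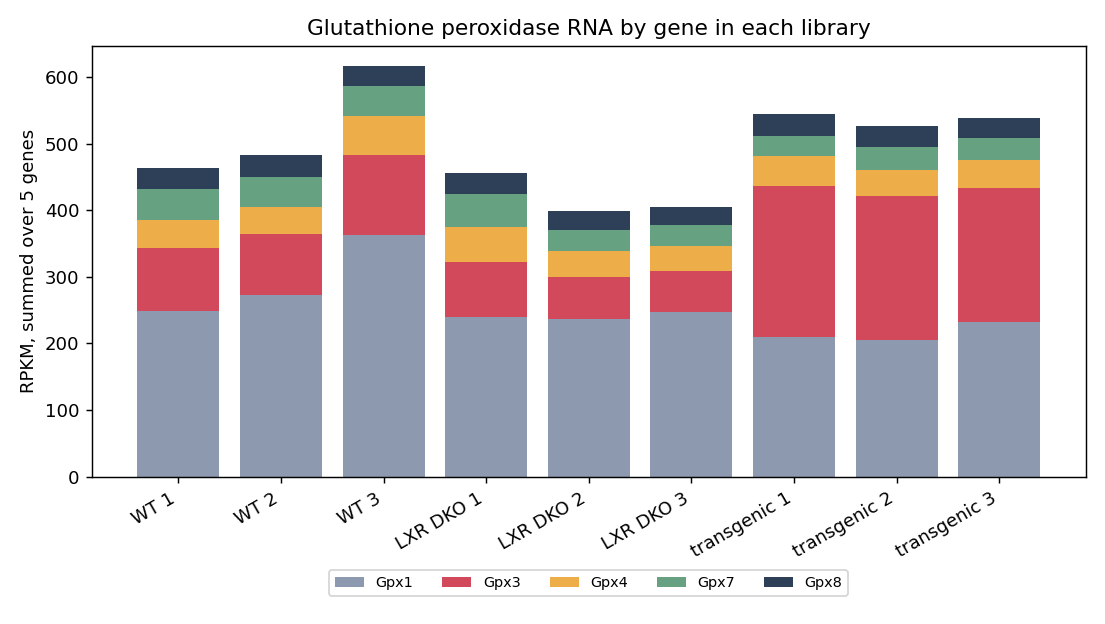
RPKM of the 5 peroxidase genes stacked for each of the 9 libraries (vertical axis, from 0). The Gpx3 segment takes 37.5 to 41.7% of the bar in the transgenic libraries and at most 20.4% in the others. Reads given to the Gpx4 near copy are not included.

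Gpx4, the lipid hydroperoxidase, did not separate the genotypes. Gpx4 (ENSMUSG00000075706, chromosome 10, 80047166 to 80056439, plus strand) measured 42.1, 41.8 and 58.1 RPKM across WT libraries, 52.5, 39.6 and 37.6 across LXR DKO and 43.8, 38.1 and 42.3 across transgenic ones. WT 3 and LXR DKO 1 were the high libraries, and all groups overlapped. The differences were -0.13 ± 0.16 for LXR DKO minus WT, -0.05 ± 0.16 for transgenic minus LXR DKO and -0.17 ± 0.16 for transgenic minus WT (limma adjusted p = 0.672, 0.969 and 0.495). Their 95% intervals were -0.49 to 0.24, -0.41 to 0.31 and -0.54 to 0.19. The level itself is uncertain, because the transcribed pseudogene Gpx4-ps2 is 99.7% identical to Gpx4 over 733 bases and took more of the counted signal than the gene. Gpx4-ps2, looked up after the values were seen, measured 140 to 215 RPKM, 3.70 to 3.95 times the Gpx4 level in every library. A further near copy, AC122253.3, 95.1% identical over 510 bases, measured 10.1 to 21.2 RPKM. Summed over Gpx4 and Gpx4-ps2, the level in RPM, reads scaled to library size only, was 224 ± 41 in WT, 203 ± 38.4 in LXR DKO and 197 ± 15.6 in transgenic libraries (SD, n = 3), and the groups overlapped here too. No other member had a near copy among annotated transcripts.

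Gpx7 and Gpx8, the peroxidases of the endoplasmic reticulum, differed from each other in pattern. Gpx7 (ENSMUSG00000028597, chromosome 4, 108400390 to 108406961, minus strand) measured 45.4, 44.6 and 46.1 RPKM across WT libraries, 49.9, 31.0 and 31.0 across LXR DKO and 30.7, 34.2 and 33.6 across transgenic ones. LXR DKO 1 lay with the WT libraries, and the other 5 libraries of the knockout background lay below all of them. The differences were -0.31 ± 0.16 for LXR DKO minus WT, -0.14 ± 0.16 for transgenic minus LXR DKO and -0.46 ± 0.16 for transgenic minus WT, none past the threshold (limma adjusted p = 0.271, 0.876 and 0.106). Without LXR DKO 1, Gpx7 fell by 0.53 in LXR DKO (adjusted p = 0.0066), and by 0.46 from WT to transgenic libraries (0.00762). The latter also passed with only these 2 genotypes in the fit (0.0196) and with libraries weighted by their quality (0.0248). Without both WT 1 and LXR DKO 1 the differences were -0.53 and -0.45 (adjusted p = 0.0243 and 0.0265). LXR DKO 1 is 1 of the 2 libraries with the most oocyte RNA, while WT 1, the other, had a Gpx7 level between those of WT 2 and WT 3. The part of oocyte RNA in the level of LXR DKO 1 was not tested.

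Gpx8 (ENSMUSG00000021760, chromosome 13, 113042753 to 113046410, minus strand) was, with Gss, the most even of the 7 genes. It measured 31.9, 32.7 and 29.0 RPKM across WT libraries, 31.5, 28.0 and 27.4 across LXR DKO and 33.0, 32.7 and 28.9 across transgenic ones. The highest library was 1.21 times the lowest, and the groups overlapped. The differences were -0.10 ± 0.09 for LXR DKO minus WT, 0.12 ± 0.09 for transgenic minus LXR DKO and 0.01 ± 0.09 for transgenic minus WT (limma adjusted p = 0.511, 0.791 and 0.935). The 95% interval of the last was -0.19 to 0.22.

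The genes that recycle and make glutathione varied little. Gsr (ENSMUSG00000031584, chromosome 8, 33652523 to 33698163, plus strand) measured 38.4, 41.9 and 49.6 RPKM across WT libraries, 37.9, 43.3 and 44.6 across LXR DKO and 50.0, 43.0 and 50.0 across transgenic ones. All groups overlapped, and the differences were -0.04 ± 0.11, 0.18 ± 0.11 and 0.14 ± 0.11 for LXR DKO against WT, then transgenic against LXR DKO and against WT (limma adjusted p = 0.866, 0.751 and 0.441). Gss (ENSMUSG00000027610, chromosome 2, 155563181 to 155592810, minus strand) measured 16.9, 17.2 and 19.0 RPKM across WT libraries, 20.3, 19.6 and 19.7 across LXR DKO and 17.6, 19.1 and 16.8 across transgenic ones. Every LXR DKO library lay above every library of the other genotypes, but the differences were small, 0.16 ± 0.08, -0.15 ± 0.08 and 0.01 ± 0.08 in the same order (adjusted p = 0.231, 0.684 and 0.937). Exons of Gss share 6.68% of their bases with Acss2 and up to 6.51% with antisense genes on the opposite strand. The strand setting of the counting is not given in the sources used here, so part of its reads may come from those genes.

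Counted together, the members were called about as often as other genes, Gpx3 in the transgenic contrasts set aside. In LXR DKO minus WT, 1 of 7 passed and 3 of 7 had groups that did not overlap, against 28.9% of all genes, and the median difference was -0.13 against 0.02 over all genes. In transgenic minus LXR DKO, 0 of the 6 members other than Gpx3 passed in limma and 0 with voom, against 0.116% of all genes in limma, 0.0548% higher and 0.0609% lower. An unadjusted p under 0.05 was found for 0 of the 6 and for 8.1% of all genes. For 2 of these 6, Gpx1 and Gss, the groups did not overlap, against 18.3% of all genes, and the median was -0.10 against 0.01. In transgenic minus WT, 0 of 6 passed in limma and 0 with voom, against 11.9% of all genes in limma, 5.15% higher and 6.72% lower. An unadjusted p under 0.05 was found for 2 of the 6, Gpx1 and Gpx7, and for 30.4% of all genes. The same 2 had groups that did not overlap, against 35.7% of all genes, and the median was -0.08 against 0.01. The comparisons share libraries and are not independent of each other.

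**Figure D4:**
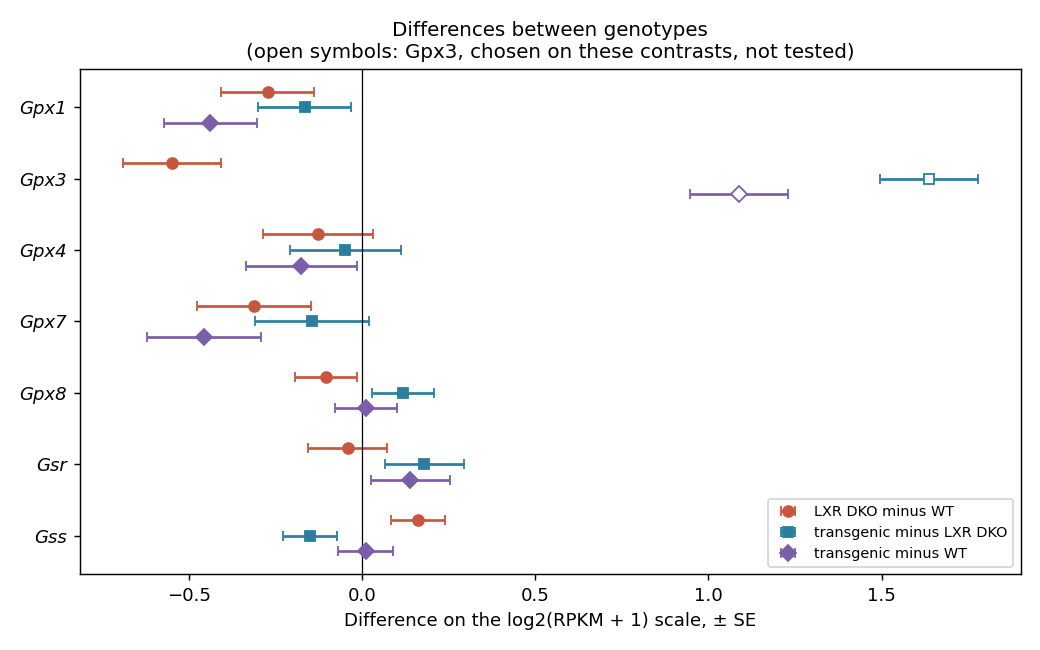
Difference between genotypes on the log2(RPKM + 1) scale (horizontal axis) with its SE for each of the 7 genes and the 3 comparisons. The open Gpx3 symbols, at 1.64 and 1.09, are the contrasts on which the gene was chosen. All other differences lie between -0.55 and 0.18.

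The family has 3 further genes, of which only Gpx2 could be tested. Gpx2, a selenium-dependent peroxidase typical of epithelia, carries a TGA at codon 40, annotated as selenocysteine. It measured 0.141, 0.319 and 2.12 RPKM across WT libraries, 1.48, 6.15 and 3.12 across LXR DKO and 5.08, 5.20 and 4.77 across transgenic ones, from 20 reads in WT 1 to 758 in transgenic 1. It was highest in LXR DKO 2 and lowest in WT 1 and 2, and rose by 1.84 ± 0.44 from WT to transgenic libraries (limma adjusted p = 0.0311). That call was lost without WT 1, WT 2 or any transgenic library (adjusted p up to 0.0931). The differences for LXR DKO minus WT and transgenic minus LXR DKO, 1.32 ± 0.44 and 0.52 ± 0.44, did not pass (adjusted p = 0.0911 and 0.803). The oviduct secretory score was lowest in the same WT 1 and 2 (2.64 and 2.66), and its part in the Gpx2 level was not tested. A pseudogene, Gpx2-ps1, 98.1% identical over 572 bases, took 0.119 to 6.69 RPKM. Gpx6 had 61 reads in WT 1 and at most 4 in any other library. Gpx5, known from the epididymis, had 0 reads in all 9 libraries.

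Genes like Gpx3 in pattern were ranked by their correlation with it. Over the 9 libraries, the genes with the highest Pearson correlation of log2(RPKM + 1) with Gpx3 were Mageh1 (0.94), Tnnt1 (0.93), Xlr3c (0.92), Atp6v0c (0.91) and Decr2 (0.91). The points share libraries, genotypes and scaling, and the coefficients are a description. Their ranges were narrower than that of Gpx3. Decr2, for example, measured 23.8 to 25.3 RPKM in transgenic and 13.2 to 17.3 RPKM in the other libraries, and Atp6v0c measured 31.2 to 33.1 against 24.8 to 30.5 RPKM.

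Of 153 other genes of glutathione, selenium and peroxide handling in 11 lists, 130 could be tested. In LXR DKO minus WT, 5 rose, 7 fell and 118 did not pass, which is 9.23% called against 10.6% of all genes, with a median of 0.02, as over all genes. In transgenic minus LXR DKO, 0 of 130 passed in limma and 0 with voom, against only 0.116% of all genes in limma. An unadjusted p under 0.05 was found for 10 of the 130 and for 8.1% of all genes (median 0.04 against 0.01). In transgenic minus WT, 7 rose, 5 fell and 118 did not pass, 9.23% against 11.9% of all genes (median 0.07 against 0.01). These counts depended on single libraries: without LXR DKO 2 the first was 3, without LXR DKO 3 it was 4, without WT 1 it was 7, and without WT 3 or LXR DKO 1 it was 19. The last was 36 without WT 3, 7 without WT 1, WT 2 or transgenic 1, 6 without transgenic 2 and 3 without transgenic 3. Without WT 3 the middle count was 2. The number called over all genes also moved on leaving out each library. It ranged from 609 to 2140, from 6 to 150 and from 650 to 3555 in the 3 comparisons, against 1739, 19 and 1949 with all libraries. The swings are thus not particular to these lists.

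Among 17 genes of glutathione synthesis and breakdown, 1 rose and 2 fell in LXR DKO, and 3 rose and 1 fell in transgenic against WT libraries. The shares called were 17.6% and 23.5%, against 10.6% and 11.9% of all genes. Gclc, the catalytic subunit of the enzyme that commits cysteine to glutathione, measured 31.9, 34.6 and 51.7 RPKM across WT libraries, 21.2, 24.8 and 25.5 across LXR DKO and 34.4, 32.7 and 31.8 across transgenic ones. Like Gpx3 it was lowest in every LXR DKO library, and fell by 0.67 ± 0.16 in LXR DKO (limma adjusted p = 0.035). This call held only without WT 1 or WT 3 among the 9 omissions of a library (adjusted p up to 0.0876). The rise from LXR DKO to transgenic, 0.46 ± 0.16, did not pass (adjusted p = 0.513), nor did any difference of Gclm, the regulatory subunit, at 5.44 to 7.90 RPKM, named for its role after its values were seen. Ggct, which acts in glutathione breakdown, fell from 6.56 ± 0.663 RPKM in WT to 2.2 ± 1.2 in LXR DKO and 1.68 ± 0.678 in transgenic libraries (adjusted p = 0.0201 and 0.0126). The first of these calls was lost on leaving out WT 1, WT 2 or either of LXR DKO 2 and 3 (up to 0.0632) and the second without transgenic 3 (0.0518). The glutathione conjugate exporter gene Abcc1 rose in transgenic against WT libraries by 0.70 ± 0.11 (adjusted p = 0.00746), and Anpep and Ggt1, peptidases that act on glutathione outside the cell, were the other 2 genes that rose. Ggt1 measured 0.0866, 0.15 and 1.13 RPKM across WT libraries, 0.371, 0.815 and 0.646 across LXR DKO and 1.54, 2.04 and 1.49 across transgenic ones. Only WT 3 and the transgenic libraries reached the 1 RPKM of the filter, so the rise of Ggt1, counted above, is a description. The call of Anpep was lost without transgenic 3 (adjusted p = 0.0532), and that of Ggt1 on leaving out any library but WT 3 and LXR DKO 1 (up to 0.132). Among the 9 omissions, the call of the Abcc1 rise in LXR DKO, 0.45 ± 0.11 (0.0359), held only without WT 1 or LXR DKO 1 (up to 0.127).

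Of 25 glutathione transferase and related genes, 1 rose and 2 fell in both comparisons with WT, or 12% in each. Over all genes 10.6% passed in LXR DKO and 11.9% in transgenic against WT libraries. The same 3 genes passed in both, and these comparisons share the WT libraries. Gstcd, named for a transferase-like domain, measured 1.83, 1.74 and 1.29 RPKM across WT libraries, 5.27, 4.94 and 5.31 across LXR DKO and 5.21, 5.44 and 5.43 across transgenic ones, with rises of 1.24 ± 0.10 and 1.29 ± 0.10 (limma adjusted p = 0.000326 and 0.000241). Both calls held under all alternatives run. Mgst2, a microsomal enzyme, fell from 14.5 ± 2.45 to 7.62 ± 1.96 RPKM in LXR DKO and 7.54 ± 0.843 in transgenic libraries (adjusted p = 0.0193 and 0.0208). The first was lost on leaving out WT 1, WT 2 or either of LXR DKO 2 and 3, and the second without WT 1, WT 2, transgenic 2 or transgenic 3 (up to 0.0743 and 0.0744). Gsto1, of the omega class, fell by 0.39 ± 0.09 and 0.41 ± 0.09 (0.031 and 0.0269), a first call lost without WT 2, WT 3, LXR DKO 2, LXR DKO 3 or transgenic 3 (up to 0.108) and a second lost without WT 2, transgenic 2 or transgenic 3 (up to 0.0921).

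Of 16 other selenoprotein genes tested, 0 rose and 1 fell in LXR DKO, a share of 6.25% against 10.6% of all genes. Selenoh, the 1 that fell, went from 16.4 ± 1.93 to 11.6 ± 0.85 RPKM (-0.47 ± 0.11, limma adjusted p = 0.0301). This call was lost without WT 1, WT 3, LXR DKO 2, LXR DKO 3 or transgenic 1 (up to 0.107). Selenop, the secreted selenium carrier, also named after its values were seen, measured 16.3, 19.9 and 37.6 RPKM across WT libraries, 19.9, 22.4 and 28.6 across LXR DKO and 35.5, 27.3 and 32.4 across transgenic ones, with no difference past the threshold (adjusted p = 0.977, 0.752 and 0.314 in the order used above). None of 11 genes of the selenocysteine machinery passed in any comparison, nor did any of 13 thioredoxin and peroxiredoxin, 6 superoxide and catalase or 4 glutaredoxin genes. Over all genes 10.6%, 0.116% and 11.9% passed, in the same order of comparisons. In the remaining lists, 1 of 11 genes of oxidative folding passed in each comparison with WT, 9.09% against the same shares of all genes. This was the sulfhydryl oxidase gene Qsox1. It rose from 9.28 ± 0.343 RPKM in WT to 14.8 ± 0.736 in LXR DKO and 16.6 ± 1.38 in transgenic libraries (adjusted p = 0.00375 and 0.00134), and both calls held under all alternatives run. Of 14 genes of lipid peroxidation and ferroptosis, 2 rose and 2 fell in LXR DKO, and 0 rose and 2 fell in transgenic against WT libraries. These are shares of 28.6% and 14.3%, against 10.6% and 11.9% of all genes. The iron exporter gene Slc40a1 fell from 221 ± 10.9 to 116 ± 6.98 RPKM in LXR DKO (adjusted p = 0.00201), a call that held under all alternatives run. In transgenic libraries it was at 147 ± 20.9 RPKM, a fall of 0.59 from WT (0.0134) that was lost without transgenic 1 or 3 (up to 0.0528). Ftl1, an iron storage subunit, fell from 415 ± 26.3 RPKM in WT to 274 ± 50.7 across LXR DKO and 265 ± 2.68 across transgenic libraries (0.019 and 0.0166). Its first call was lost on leaving out WT 1 or either of LXR DKO 2 and 3 (up to 0.0804), and its second without WT 1 or any transgenic library (up to 0.0614). Hmox1, which degrades heme, averaged 21.4 ± 2.18 RPKM across WT libraries, 48.2 ± 18.3 across LXR DKO and 24.2 ± 3.84 across transgenic ones. It rose in LXR DKO by 1.07 ± 0.23 (0.0236), a call lost without WT 1 or LXR DKO 2 (up to 0.0678). Lpcat3, an acyltransferase of membrane phospholipids and a known LXR target, rose there by 0.54 ± 0.13 (0.0308). Among the 9 omissions of a library, this call held only without LXR DKO 1 or a WT library (up to 0.117). Of 12 genes of NADPH supply, 0 passed in LXR DKO minus WT, against 10.6% of all genes. In transgenic minus WT 1 passed, or 8.33% against 11.9% of all genes. This gene, the folate cycle gene Mthfd1, rose by 0.39 ± 0.09 (0.0323). Its call held, among the 9 omissions, only without WT 3, LXR DKO 1 or LXR DKO 3 (up to 0.112).

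**Figure D5:**
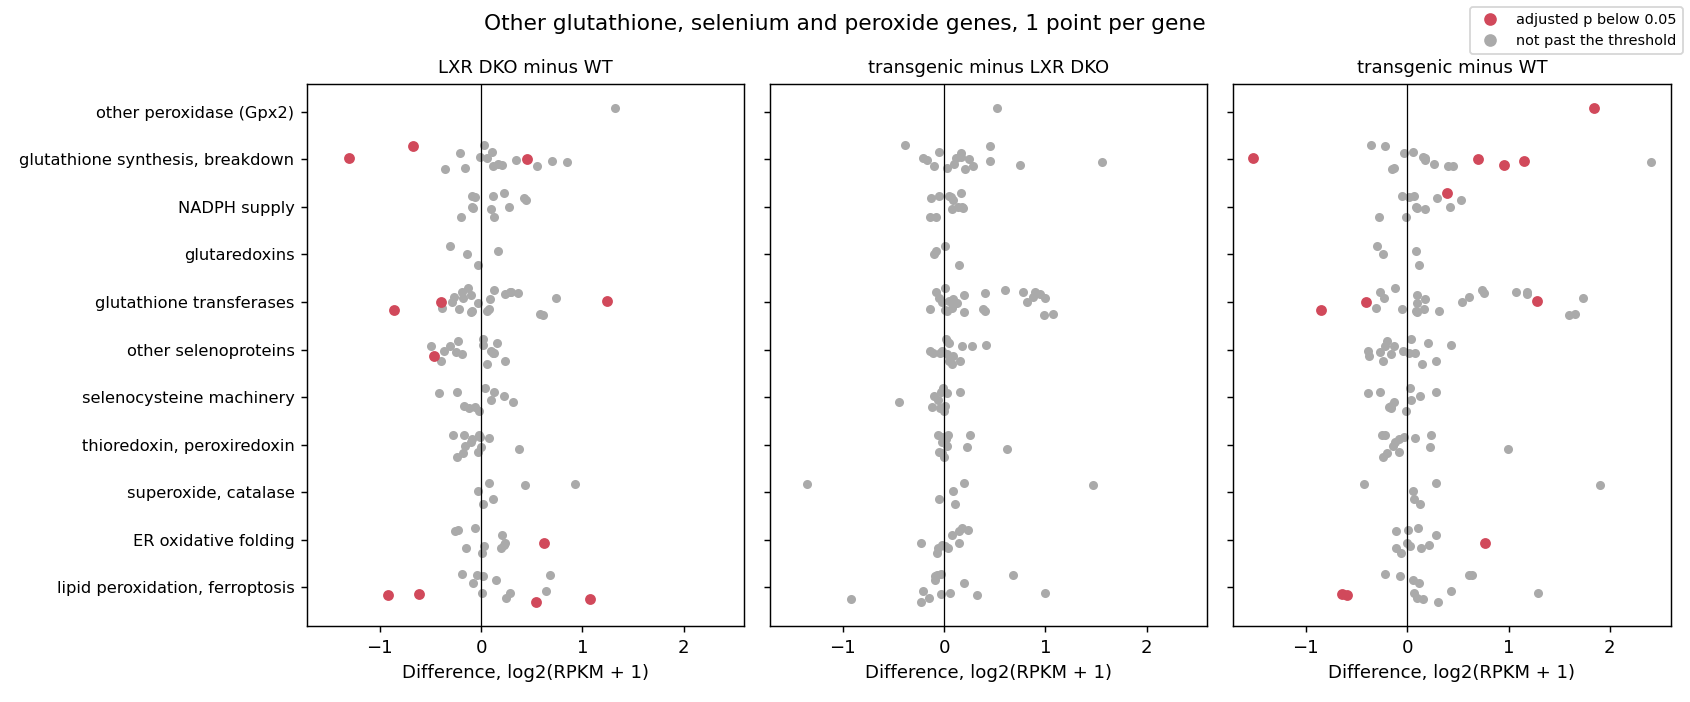
Difference on the log2(RPKM + 1) scale (horizontal axes) of each tested gene in the 11 lists, 1 panel per comparison, with genes past the threshold in red. In the middle panel, transgenic minus LXR DKO, no gene of the lists passed, where 0.116% of all genes did.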

How the data were processed

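The authors deposited 1 matrix of RPKM values with 1 column per library, for 54838 genes. Per the submitters' processing notes, the build was mm10 and the tools were HTSeq 0.5.4p5, HISAT2 2.1.0, DESeq2 1.2.8 and cutadapt, listed without a role or an order. For the annotation, the strand setting and reads that map to several places, nothing is stated in those notes. Columns were matched to samples by name, and those of the transgenic libraries differ from their descriptions in 1 letter.

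The RPKM values are whole multiples of 1 read. With exon lengths of GENCODE M21, 98.1% of genes above 0 gave whole reads, to within 0.02 reads, in all 9 libraries. Values were analysed as log2(RPKM + 1), with a pseudocount of 1, for the 16422 genes that reached 1 RPKM in 3 or more libraries. A single limma fit (version 3.58.1, under R 4.3.3) of genotype took in all 9 libraries and used a mean-variance trend. The threshold was an adjusted p of 0.05. The fit was tested on simulated data. A fold change on this scale understates the change of low genes.

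The members and lists were chosen with earlier results of these data known. Text names all members, per list and comparison up to 4 genes past the threshold by p, and the 5 genes most like Gpx3, leaving out predicted genes. Near copies were sought with blastn 2.17.0 at 90% identity over 150 bases. The cell type lists numbered 10. Alternatives were another pseudocount, other filters, quantile normalization, fewer genotypes, a replicate block, no trend, library weights, left-out libraries and, chosen after seeing the data, voom on the reads worked back.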

Additional observations from a re-analysis of the deposited data

How the results depend on the processing

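The Gpx3 difference in LXR DKO minus WT kept its direction under all 19 alternatives and lost its call under 12. The number of members called there was 1, and became 0 with no filter, with only the 2 genotypes compared, with the replicate block and with no trend, and 2 without WT 1 and LXR DKO 1. It ranged from 0 to 2 on leaving out each library. The number for transgenic minus WT was 0, and became 1 with only the 2 genotypes compared, 2 with library weights and 1 without WT 1 and LXR DKO 1, with a range of 0 to 1 on leaving out each library. The number for transgenic minus LXR DKO was 0 throughout.

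For the 11 lists, the count of 12 in LXR DKO minus WT became 3 with no filter, 4 with only the 2 genotypes compared and 20 with library weights, with a range of 3 to 19 on leaving out each library. The count of 0 in transgenic minus LXR DKO became 1 with only the 2 genotypes and 2 with library weights, with a range of 0 to 2. The count of 12 in transgenic minus WT became 6 with no filter and 38 with library weights, with a range of 3 to 36. Over the 19 alternatives the number called over all genes moved too, from 609 to 2823, 6 to 159 and 650 to 4431 in the 3 comparisons. The cause was not tested. Of 45 named differences, 6 changed sign under 1 or more alternatives: Gpx4 in LXR DKO minus WT (to 0.028 at most) and in transgenic minus LXR DKO (0.097), Gpx7 in transgenic minus LXR DKO (0.079), Gsr in LXR DKO minus WT (0.073), and Gpx8 and Gss in transgenic minus WT (-0.037 each at the lowest). None of these passed the threshold with either sign.

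Replicate numbers gave no steady pairing of the libraries. Correlations of deviations ranged from -0.293 to 0.672 for same-numbered libraries and from -0.554 to 0.529 for the others. The highest, 0.672, was that of WT 1 with LXR DKO 1. With the replicate number as a block the lists had 9, 0 and 11 genes called and the members 0, 0 and 0, in the order used above. Voom gave 11, 0 and 11, and 1, 0 and 0. Leaving out a library of a genotype leaves 2, whose spread the fit pools with the others.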
